A study of Homo sapiens with 21 samples.

Results

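The genes of cholesterol synthesis and sterol sensing were followed in cells labelled HepG2, a human hepatoma line, that were exposed to coumarin. The group holds 29 genes chosen by symbol, as one pathway, out of 58735 genes in the count table: 8 genes of the mevalonate pathway, 3 of squalene and lanosterol formation, 8 of the steps between lanosterol and cholesterol, 4 of sterol sensing and 6 of sterol transport, storage and turnover. The rule that lists them uses no measured value, but the genes were chosen with earlier results of these data known. All 29 were found by symbol and all 29 passed the low-count filter, which kept 16699 genes. Poly(A) RNA was sequenced in 21 libraries, 3 for each of 7 groups. The groups were coumarin at 0.001, 0.01, 0.1, 1, 10 and 100 µM and an untreated control (0 µM), each for 24 h. Every group, the control included, was kept in DMEM without serum during exposure. The labels call the replicates biological, and the p-values below measure the spread between these libraries.

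Cells make cholesterol from acetyl-CoA through mevalonate, farnesyl diphosphate, squalene and lanosterol. The transcription factor SREBP2, encoded by SREBF2, switches on most genes of this route. It is made as a membrane protein of the endoplasmic reticulum, where SCAP escorts it to the Golgi for cleavage when sterols are scarce and the INSIG proteins hold it back when sterols are plentiful. INSIG1 is itself a target of SREBP2, so its transcript is widely read as a marker of the pathway's activity. In liver the route supplies membranes, bile acids and lipoproteins.

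SREBP2 binds the sterol regulatory element, usually next to a site for the factor NF-Y, whose core is the inverted CCAAT box ATTGG. Promoter windows of 300 bases (250 before to 50 after each RefSeq start, GRCh38.p14) were at hand for 26 of the 29 genes, 7 of them with several windows. ATTGG, searched on both strands, stood in 21 of 26 of these genes (80.8%), against 42.9% of 10595 tested genes with a window. A gene with several windows was counted if any of them held the letters. ATTGG stood in all 12 genes with a window that were lower at 100 than at 10 µM (below) and in 9 of 14 of the others. The genes without a window, ACAT2, FDFT1 and SQLE, were all lower as well. CACNCCAC, a short form of the sterol regulatory element, stood in 4 of 26 genes (IDI1, SC5D, INSIG1 and SREBF2; 15.4%, against 7.73% of tested genes). Its longer form TCACNCCAC, which contains it, stood in 1 of 26 (3.85%, against 1.4%), SREBF2. The E-box CACGTG stood in 4 of 26 (15.4%, against 12.7%) and the GC box GGGCGG in 25 of 26 (96.2%, against 76.1%).

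The bases upstream of 4 of these genes are shown, 5′ to 3′, because they set genes that differed beside one that did not pass: INSIG1 and MVD, which were lower at 100 than at 10 µM, SREBF2, which carries the full element, and TMEM97, whose level did not pass the test in that comparison. Capitals mark ATTGG and the sterol regulatory element in either of its 2 forms, or their reverse complements where the match lies on the other strand. Each stretch ends before the first annotated base of the gene in both RefSeq and the deposited gene coordinates. The INSIG1 stretch is chr7:155297628-155297775 on the plus strand, that of MVD is chr16:88663162-88663341 on the minus strand, that of SREBF2 is chr22:41832855-41833078 on the plus strand and that of TMEM97 is chr17:28318950-28319094 on the plus strand.
INSIG1: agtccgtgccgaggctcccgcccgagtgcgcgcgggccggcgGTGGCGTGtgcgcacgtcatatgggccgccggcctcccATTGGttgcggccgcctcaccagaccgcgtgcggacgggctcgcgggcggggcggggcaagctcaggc
MVD: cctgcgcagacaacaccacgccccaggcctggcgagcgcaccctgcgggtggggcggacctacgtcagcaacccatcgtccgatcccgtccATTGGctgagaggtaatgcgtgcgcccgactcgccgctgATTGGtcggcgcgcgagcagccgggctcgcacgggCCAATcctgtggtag
SREBF2: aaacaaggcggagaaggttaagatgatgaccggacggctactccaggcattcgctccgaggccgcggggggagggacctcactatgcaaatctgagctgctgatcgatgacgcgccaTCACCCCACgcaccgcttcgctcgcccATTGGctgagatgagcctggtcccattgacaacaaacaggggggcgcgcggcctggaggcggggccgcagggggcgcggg
TMEM97: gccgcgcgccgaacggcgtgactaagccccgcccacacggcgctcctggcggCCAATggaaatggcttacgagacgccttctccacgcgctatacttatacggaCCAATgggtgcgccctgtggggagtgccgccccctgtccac
In INSIG1 and SREBF2 the stretch held 1 ATTGG and 1 CACNCCAC match, in MVD 3 ATTGG matches and in TMEM97 2, so the letters also occur upstream of a gene whose level did not pass the test. A match of letters describes the sequence and does not show that a factor binds there.

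Libraries held 26984563 to 43375429 counts in genes. Levels within a gene are given as CPM, counts scaled to the library size, with TMM factors. Transcripts that define hepatocytes were absent or near 0: of 12 such genes, 5 (ALB, TTR, APOC3, RBP4 and FGB) had no count in any library, HNF4A had a mean of 0.0192 CPM, and the 12 together summed to 0.204 to 0.69 CPM. The epithelial keratin KRT7 (751 CPM), the collagen COL3A1 (1210 CPM) and the filament gene VIM (312 CPM) were abundant. KRT17 (143 CPM), SFN (170 CPM), COL1A1 (114 CPM) and PDGFRB (36.2 CPM) were also present. Other epithelial and mesenchymal markers were near 0: KRT19 (0.0574 CPM), EPCAM (0.00164 CPM) and COL1A2 (0.00461 CPM), and PDGFRA had no count. The cells are called here by their label. In such bulk libraries, fewer cells of a type and less RNA per cell cannot be told apart.

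At 100 against 10 µM, 15 of the 29 genes were lower, 1 was higher (SOAT1) and 13 did not pass the test. Of all 16699 genes tested, 10% were lower, 8.22% were higher and 18.3% passed in either direction (edgeR quasi-likelihood test with Benjamini-Hochberg adjustment over all genes, adjusted p under 0.05). The median log2 change of the 29 genes was -0.18 and that of all tested genes was 0.00. The falls were small, 1.13- to 1.49-fold. In 15 genes all 3 libraries at 100 µM lay below all 3 at 10 µM (16.2% of all genes), and in 3 (SOAT1, PMVK and CYP51A1) all lay above (16%). By position in the route, 5 of 8 mevalonate pathway genes, 3 of 3 genes of squalene and lanosterol formation, 4 of 8 genes from lanosterol to cholesterol, 2 of 4 sensing genes and 1 of 6 genes of transport and turnover were lower. The 19 enzymes of synthesis together had 12 falls and a median of -0.19. Of the 15 falls, 13 kept their call when any single library of the 2 groups was left out and under each alternative setting. The summed mesenchymal markers (6 genes, COL3A1 and VIM among them, PDGFRA at 0) were 1380 to 1430 CPM at 100 µM, 1550 to 1680 CPM at 10 µM and 1590 to 1670 CPM in control, and the 5 epithelial markers summed to 1020 to 1030, 947 to 1030 and 1010 to 1080 CPM. Their part in the results was not tested.

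**Figure D1:**
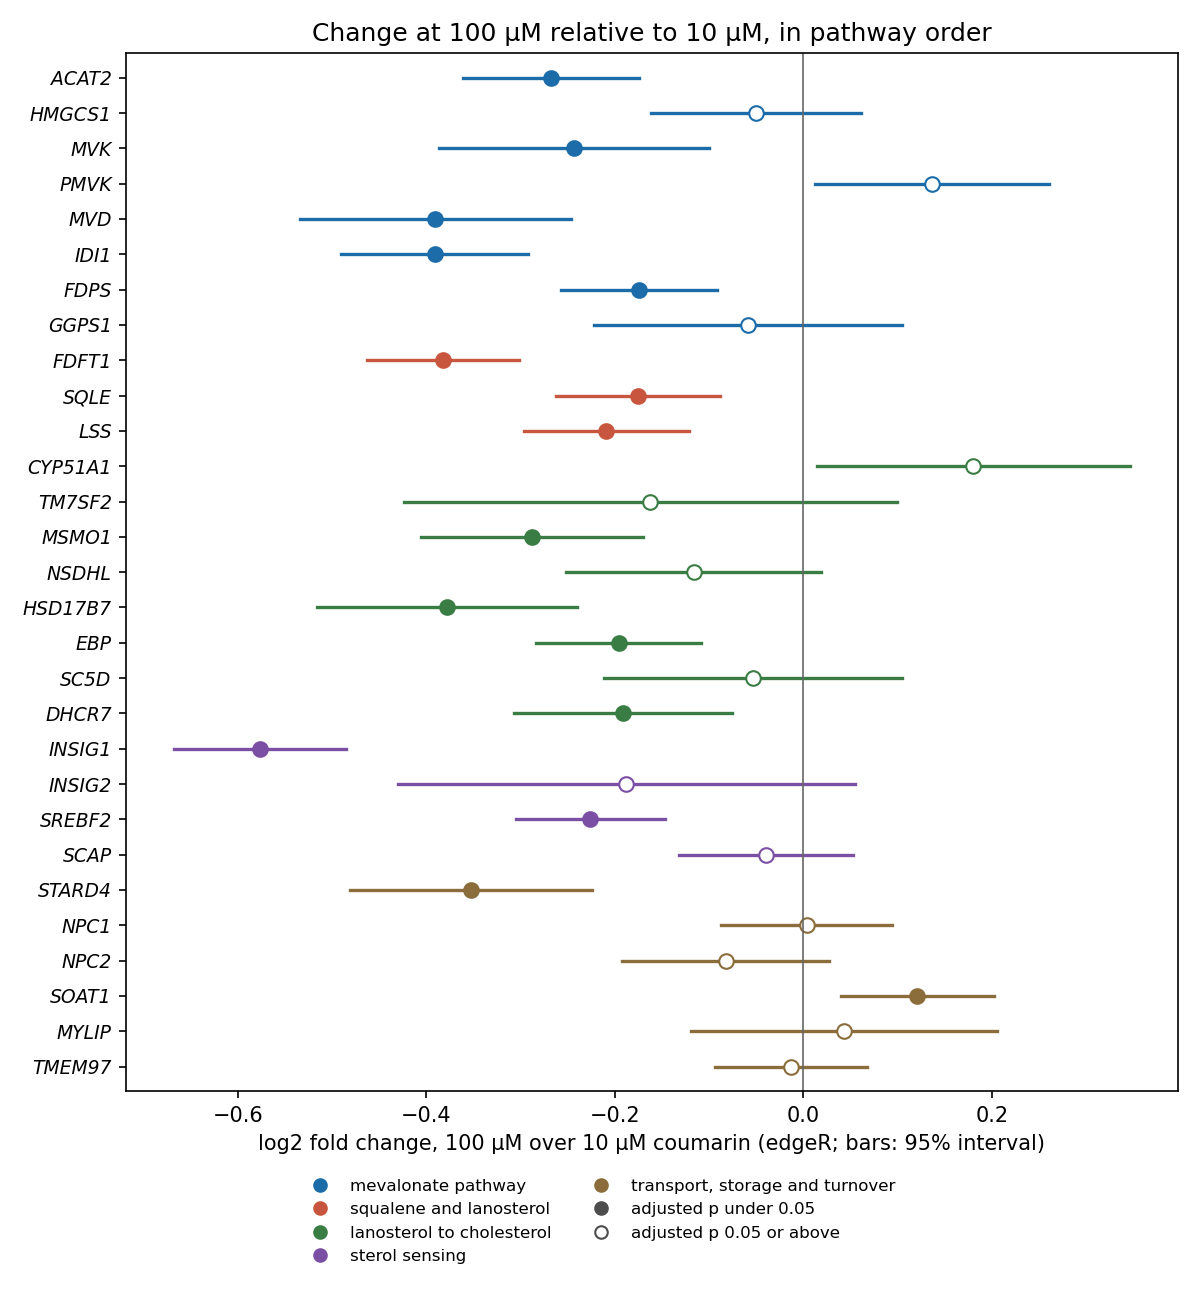
Change of each of the 29 genes at 100 µM relative to 10 µM coumarin (horizontal axis, log2 fold change from edgeR, with 95% intervals), in pathway order from top to bottom and coloured by role. Filled points passed an adjusted p under 0.05, and 15 of them lie left of 0, with INSIG1 farthest at -0.58 and SOAT1 alone on the right at 0.12.

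In the mevalonate pathway the falls began at its entry. ACAT2 (chr6:159760328-159779055), the cytosolic thiolase that joins acetyl-CoA units, had 53.3, 51.5 and 52.9 CPM in the libraries at 100 µM, 64.2, 63.5 and 62.3 CPM at 10 µM and 59.3, 51.3 and 54.3 CPM in control. The libraries at 100 µM were all below those at 10 µM and lay within the control range (log2 change -0.27, SE 0.046, adjusted p = 3.09e-05 for 100 against 10 µM). ACAT2 shares 558 bases with TCP1 on the opposite strand, and since the strand setting of the counting is not given, reads there cannot be told apart; TCP1, at a mean of 7562 counts against 1762 for ACAT2, did not pass in that comparison (log2 change 0.09, adjusted p = 0.0996). HMGCS1, the synthase that makes HMG-CoA, had 38.2, 38.2 and 38.3 CPM at 100 µM, 39.2, 41.8 and 38.0 CPM at 10 µM and 39.7, 36.1 and 36.6 CPM in control. These ranges overlapped, and the interval of its log2 change, -0.16 to 0.06, holds no fall as large as that of ACAT2 (adjusted p = 0.606). MVK, which phosphorylates mevalonate, fell by 0.24 on the log2 scale (adjusted p = 0.0124), but not without 10 µM replicate 3 (adjusted p = 0.161) or 100 µM replicate 3 (0.0666). Its neighbour MMAB, which overlaps it by 620 bases on the other strand, fell too (log2 change -0.24, adjusted p = 0.00179). FDPS, GGPS1, LSS, DHCR7, SREBF2, STARD4, NPC1, NPC2 and TMEM97 likewise overlap tested genes on the opposite strand, with the same limit. GGPS1 also shares 15963 bases with TBCE on its own strand (mean counts 504.2 and 124.6), and TM7SF2 shares 16 with VPS51. For these overlaps no strand setting would separate the reads. PMVK, which adds the next phosphate, had a log2 change of 0.14 (adjusted p = 0.126; 0.0173, higher, without 10 µM replicate 3).

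MVD (chr16:88651935-88663161), the decarboxylase that yields isopentenyl diphosphate, had 36.4, 37.1 and 37.8 CPM at 100 µM, 47.5, 43.6 and 54.0 CPM at 10 µM and 45.3, 42.3 and 41.5 CPM in control. Its libraries at 100 µM were close together and below every other library of those groups, while those at 10 µM spread widely (log2 change -0.39, SE 0.0704, adjusted p = 1.40e-04). IDI1 (chr10:1039152-1049170), the isomerase that follows, had 58.6, 58.2 and 58.5 CPM at 100 µM, 79.2, 78.1 and 73.0 CPM at 10 µM and 69.7, 66.9 and 67.2 CPM in control. The 3 groups did not overlap: 10 µM was the highest and 100 µM the lowest (log2 change -0.39, SE 0.049, adjusted p = 8.61e-08 for 100 against 10 µM, 1.31-fold lower). FDPS, which makes farnesyl diphosphate, had 136, 138 and 142 CPM at 100 µM and 157, 149.7 and 163 CPM at 10 µM and was lower at 100 µM (log2 change -0.17, SE 0.0409, adjusted p = 0.00189). GGPS1, which leads farnesyl diphosphate away from sterols to geranylgeranyl diphosphate, had a log2 change of -0.06 (interval -0.22 to 0.10; adjusted p = 0.693).

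All 3 genes between farnesyl diphosphate and lanosterol were lower at 100 µM. FDFT1, squalene synthase, the first enzyme committed to sterols, had 181, 171 and 174 CPM at 100 µM, 235, 219 and 233 CPM at 10 µM and 214, 205 and 195 CPM in control. As for IDI1, the 3 groups were apart, with 10 µM on top and 100 µM at the bottom (log2 change -0.38, SE 0.04, adjusted p = 1.29e-09 for 100 against 10 µM). SQLE, squalene epoxidase, had 47.4, 46.0 and 46.3 CPM at 100 µM, 51.8, 51.9 and 53.8 CPM at 10 µM and 47.3, 46.0 and 46.9 CPM in control (log2 change -0.18, SE 0.043, adjusted p = 0.00286). Its level at 100 µM was thus near that of control. LSS (chr21:46188141-46228824), which closes the ring to lanosterol, had 89.0, 93.2 and 87.6 CPM at 100 µM, 101, 103 and 108 CPM at 10 µM and 91.4, 93.3 and 96.0 CPM in control. The libraries at 100 µM lay below those at 10 µM and overlapped those of control (log2 change -0.21, SE 0.0433, adjusted p = 4.34e-04).

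Of the 8 genes between lanosterol and cholesterol, 4 fell. MSMO1 (chr4:165327623-165343160), a sterol methyl oxidase, had 24.2, 22.1 and 23.3 CPM at 100 µM, 28.9, 28.5 and 27.8 CPM at 10 µM and 25.2, 24.9 and 24.5 CPM in control, lowest at 100 µM in every pairing of libraries (log2 change -0.29, SE 0.0582, adjusted p = 3.23e-04 for 100 against 10 µM). HSD17B7 (chr1:162790702-162812817), a sterol ketoreductase of the same demethylation, had 15.6, 14.6 and 13.7 CPM at 100 µM, 18.1, 19.04 and 19.7 CPM at 10 µM and 16.8, 17.001 and 16.6 CPM in control, with the groups apart (log2 change -0.38, SE 0.0681, adjusted p = 6.24e-05). EBP, a sterol isomerase, had 69.3, 65.9 and 70.8 CPM at 100 µM and 76.2, 79.5 and 80.2 CPM at 10 µM (log2 change -0.20, SE 0.0431, adjusted p = 8.89e-04). DHCR7, the final reductase of one branch, had 81.6, 80.9 and 80.2 CPM at 100 µM and 90.4, 87.3 and 98.7 CPM at 10 µM (log2 change -0.19, SE 0.0567, adjusted p = 0.0153). Its call was lost without 10 µM replicate 3 (adjusted p = 0.119), without 100 µM replicate 3 (0.0556) and in the FPKM values with limma (0.0605). The other 4 did not pass. CYP51A1, the lanosterol demethylase, had 12.3, 11.96 and 11.8 CPM at 100 µM and 9.53, 10.4 and 11.6 CPM at 10 µM, all 3 above, with a log2 change of 0.18 (adjusted p = 0.131; 0.0392 without 10 µM replicate 3). Its 3 pseudogenes, to which reads may be split, held 3.21% of its counts. TM7SF2, a sterol reductase, NSDHL, the dehydrogenase of the demethylation, and SC5D, a desaturase, had log2 changes of -0.16, -0.12 and -0.05 (adjusted p = 0.444, 0.255 and 0.714).

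INSIG1 (chr7:155297776-155310235), whose upstream bases are shown above, had the largest change of the 29 genes between 100 and 10 µM. It had 61.1, 63.1 and 61.6 CPM at 100 µM, 92.7, 93.2 and 91.1 CPM at 10 µM and 73.2, 73.7 and 71.9 CPM in control. The 3 groups were far apart beside the spread within each, and the control lay between the other two (log2 change -0.58, SE 0.0451, adjusted p = 5.94e-13 for 100 against 10 µM, 1.49-fold lower). INSIG2 (chr2:118088452-118110997), its paralog, had 26.7, 27.02 and 24.7 CPM at 100 µM, 36.1, 27.2 and 26.4 CPM at 10 µM and 32.6, 29.8 and 32.4 CPM in control. One library at 10 µM stood above the rest. The ranges at 100 and 10 µM overlapped, and the log2 change between them did not pass (-0.19, -0.43 to 0.05, adjusted p = 0.307). The INSIG2 libraries at 100 µM lay below those of control, but that log2 change (-0.27) did not pass either. SREBF2 (chr22:41833079-41907308), which encodes SREBP2, had 225, 225 and 223 CPM at 100 µM, 261, 259 and 267 CPM at 10 µM and 254, 252 and 248 CPM in control. The libraries at 100 µM agreed closely and were the lowest (log2 change -0.23, SE 0.0392, adjusted p = 3.56e-05). SCAP (chr3:47413694-47477126), the escort protein's gene, had 78.5, 75.1 and 76.3 CPM at 100 µM, 75.4, 77.9 and 82.5 CPM at 10 µM and 80.5, 77.0 and 80.5 CPM in control. Its groups overlapped, and the interval of the log2 change between 100 and 10 µM was -0.13 to 0.05 (adjusted p = 0.625).

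The 6 genes that move, store or turn over sterols did not share a direction: their median log2 change was 0.00. STARD4 (chr5:111496033-111512590), a soluble sterol carrier, had 38.0, 40.0 and 41.8 CPM at 100 µM, 52.2, 54.2 and 47.2 CPM at 10 µM and 49.5, 49.8 and 48.4 CPM in control, and was lowest at 100 µM without overlap (log2 change -0.35, SE 0.0633, adjusted p = 8.08e-05 for 100 against 10 µM). SOAT1, which esterifies cholesterol for storage, ran the other way, with 114, 114 and 117 CPM at 100 µM, 106, 108 and 104 CPM at 10 µM and 100.2, 103 and 98.6 CPM in control. It was highest at 100 µM (log2 change 0.12, SE 0.0403, adjusted p = 0.0301 for 100 against 10 µM), but that call was lost on leaving out 10 µM replicate 1 (adjusted p = 0.067), 10 µM replicate 3 (0.0946) or 100 µM replicate 1 (0.0505), 2 (0.0535) or 3 (0.131), without a filter (0.0926) and with only both groups in the fit (0.0568). NPC1 and NPC2, which export cholesterol from lysosomes, had log2 changes of 0.00 and -0.08 (intervals -0.09 to 0.09 and -0.19 to 0.03). MYLIP, a ubiquitin ligase that degrades lipoprotein receptors, had 0.04 (-0.12 to 0.21), and TMEM97, a membrane protein that binds NPC1, had -0.01 (-0.09 to 0.07). None of these 4 passed (adjusted p = 0.971, 0.336, 0.777 and 0.87).

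**Figure D2:**
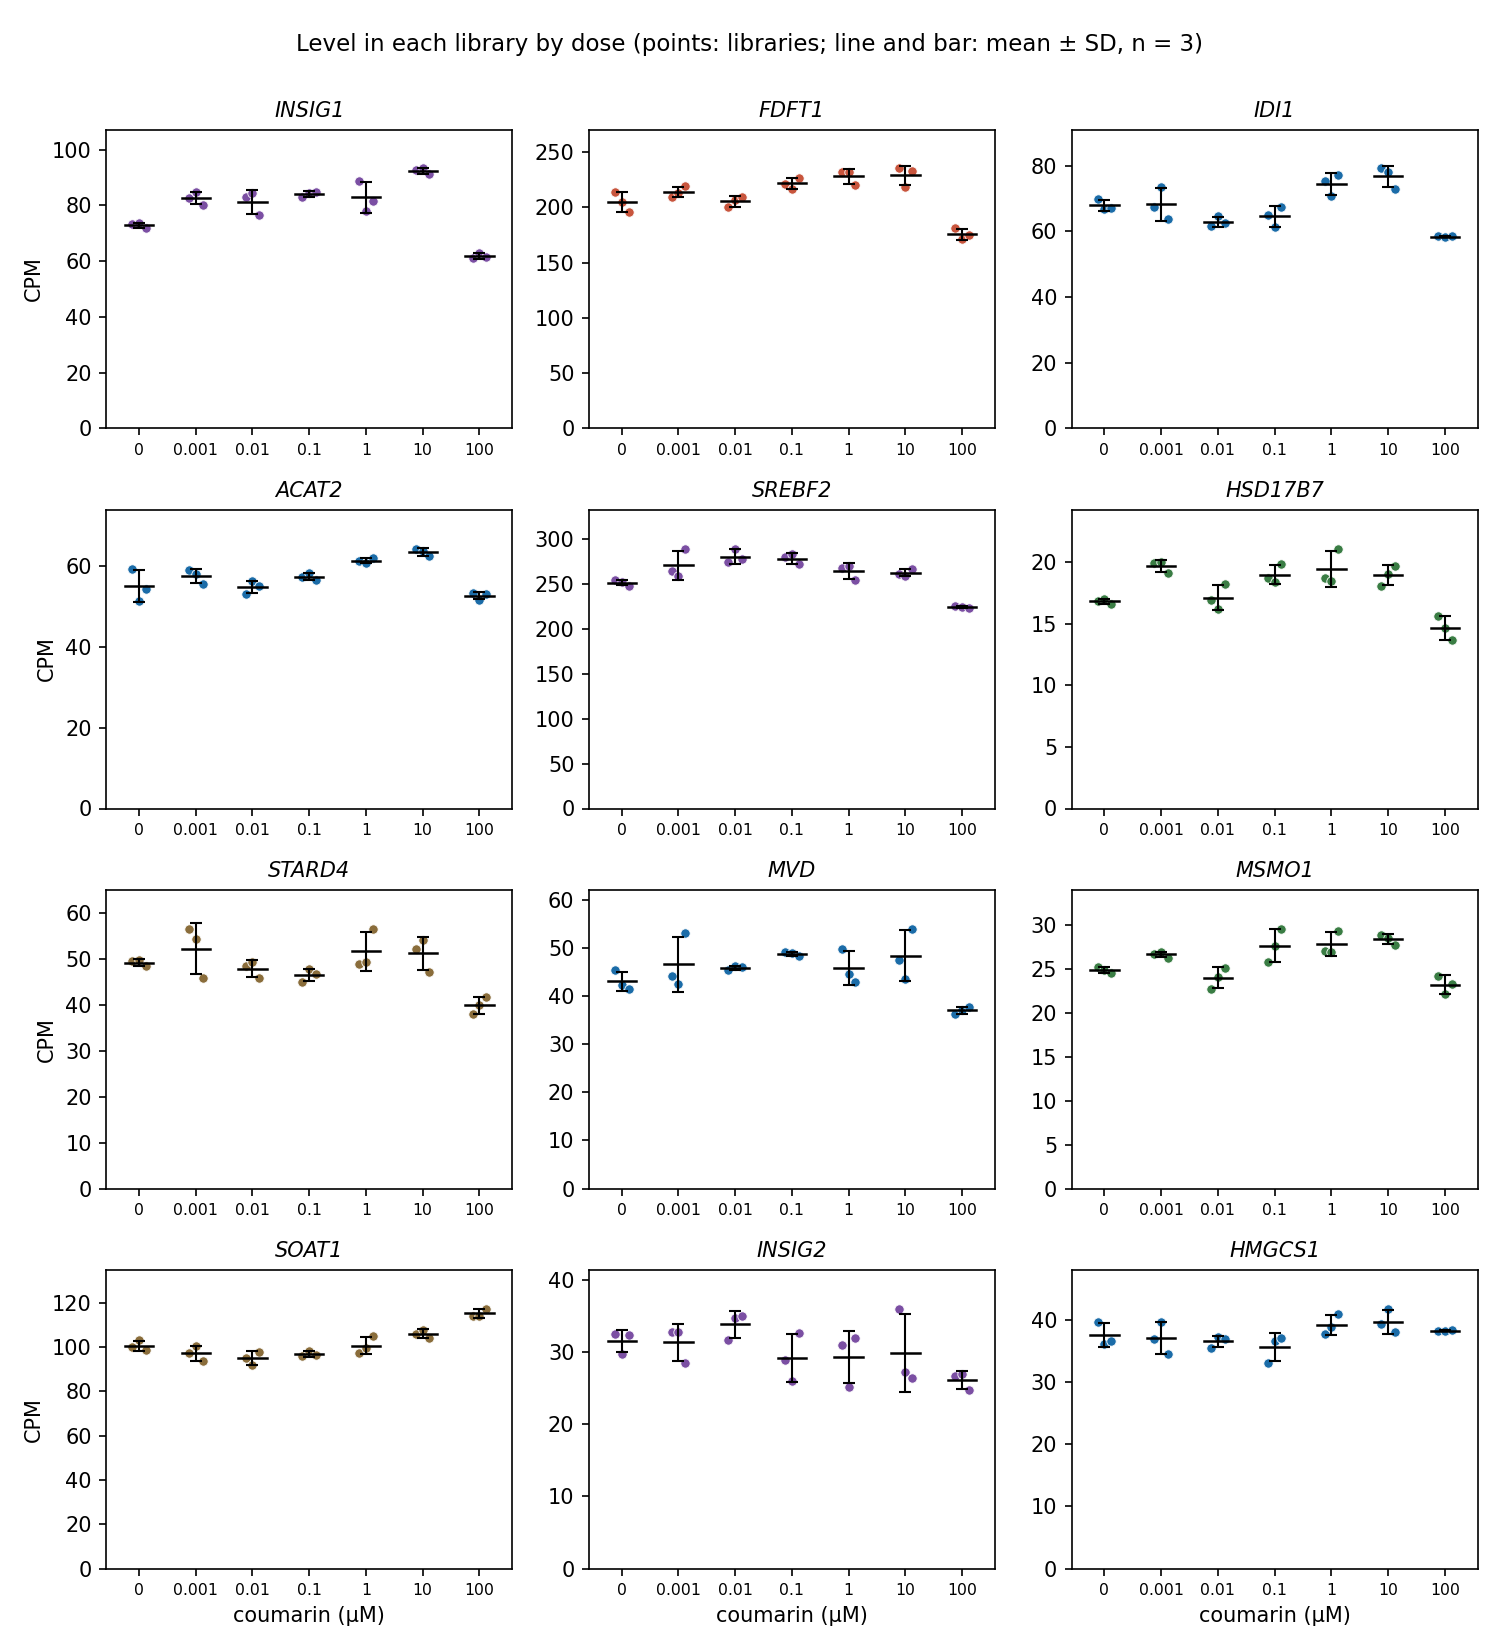
Level in CPM (vertical axes, from 0) in each of the 21 libraries by coumarin dose for 12 of the genes, with points for libraries and lines for the mean ± SD (n = 3). The means of INSIG1, FDFT1, IDI1, ACAT2, SREBF2, HSD17B7, STARD4, MVD, MSMO1 and INSIG2 are lowest at 100 µM, and that of SOAT1 is highest there. The libraries of INSIG2 and of HMGCS1 overlap between 100 and 10 µM.

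The 12 libraries at 0.001 to 1 µM gave a comparison for 100 µM that uses neither the 10 µM nor the control libraries. Against them 18 genes were lower (16.5% of all genes) and 2 higher (16.6%), with a median log2 change of -0.14 (0.00 over all genes). Both comparisons share the libraries at 100 µM. In 12 genes all 3 libraries at 100 µM lay below all 12 others (10.9% of all genes). INSIG1 ranged over 76.5 to 88.9 CPM, with a median of 82.9, in these 12 libraries, all above the 3 at 100 µM (log2 change -0.42, SE 0.0367, adjusted p = 5.53e-12). SREBF2 ranged over 255 to 289 CPM, with a median of 273 (log2 change -0.28, SE 0.0315, adjusted p = 1.86e-09), and FDFT1 over 199.9 to 232 CPM, with a median of 218 (log2 change -0.31, SE 0.0323, adjusted p = 5.95e-10). For all 3 genes the ranges stood apart from 100 µM. STARD4 was lower by a log2 change of -0.31, HSD17B7 by -0.36, MVD by -0.33, MVK by -0.33 and DHCR7 by -0.24 (adjusted p = 8.86e-06, 1.59e-06, 2.71e-05, 1.40e-05 and 7.70e-05). IDI1 (-0.21), MSMO1 (-0.19), LSS (-0.17), EBP (-0.16), ACAT2 (-0.13), SQLE (-0.13) and FDPS (-0.11) fell by less. NSDHL (-0.14, adjusted p = 0.0474), TM7SF2 (-0.26, 0.0468) and SCAP (-0.12, 0.00755) were also lower, but NSDHL and TM7SF2 lost the call by DESeq2 (adjusted p = 0.0706 and 0.0739), and all 3 lost it when certain single libraries were left out (for SCAP 100 µM replicate 2, adjusted p = 0.0634; for NSDHL any of 8 of the 15 libraries, with the largest adjusted p, 0.328, without 100 µM replicate 2; for TM7SF2 any of 11, with the largest, 0.206, without 100 µM replicate 1). The 2 that rose were SOAT1 (log2 change 0.24, SE 0.0315, adjusted p = 6.80e-08) and PMVK (log2 change 0.17, SE 0.048, adjusted p = 0.00442).

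Against control, the falls at 100 µM were fewer. Control replicates 2 and 3 had the largest scaling factors of the 21 libraries, 1.04 and 1.043, so each control comparison is also given with control replicate 1 alone. That test takes its spread from the treated libraries. Replicate 1 was also the control library least like the other 2 (chi-square per degree of freedom 6.122 and 5.434, against 2.311 between replicates 2 and 3). At 100 µM 8 genes were lower than in control (12.9% of all genes) and 3 higher (14.4%), with a median of -0.06 (-0.01 over all genes); with control replicate 1 alone 7 were lower and 1 higher, with a median of -0.12. Upper-quartile scaling gave 9 lower and 2 higher, and lowered the share of rises among all called genes to 41.4%, against 52.9%. STARD4 fell most (log2 change -0.30, SE 0.0636, adjusted p = 4.40e-04), followed by INSIG1 (-0.24, adjusted p = 1.09e-04), FDFT1 (-0.22, 4.36e-05), IDI1 (-0.22, 8.32e-04) and SREBF2 (-0.16, 0.00141). EBP (-0.15, adjusted p = 0.00676) lost its call without control replicate 1 (0.0696). MVD (-0.21, adjusted p = 0.0241) lost it without control replicate 1 (0.112), 100 µM replicate 1 (0.0691) or 100 µM replicate 2 (0.0515), and HSD17B7 (-0.20, 0.0249) without control replicate 1 (0.0511), control replicate 2 (0.0605) or 100 µM replicate 3 (0.148), and without a filter (0.0843). Both also missed it with control replicate 1 alone (0.0674 and 0.19). The genes that were higher were SOAT1 (log2 change 0.20, SE 0.0404, adjusted p = 2.64e-04), PMVK (0.21, 0.00956) and NPC1 (0.14, 0.022). PMVK and NPC1 lost their calls with control replicate 1 alone (log2 changes 0.18 and 0.08). NPC1 also lost its call with upper-quartile scaling (edgeR adjusted p = 0.0829). The same held for NPC1 without control replicate 2 (0.127) or 3 (0.0766), or without 100 µM replicate 1 (0.109) or 2 (0.0897).

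At 10 µM the direction was the opposite. Against control 7 genes were higher (1.74% of all genes) and none was lower (0.874%; also 0 at an unadjusted p under 0.05, by edgeR and by DESeq2), with a median of 0.08 (0.00 over all genes). A positive median was not particular to 10 µM. Against the same control it was larger at 0.1 µM (0.11) and 1 µM (0.09). It was smaller at 0.001 µM (0.06) and 0.01 µM (0.02). INSIG1 was higher in all 3 libraries at 10 µM than in all 3 of control (log2 change 0.34, SE 0.0447, adjusted p = 1.26e-05). DHCR7 (0.22), ACAT2 (0.20), IDI1 (0.17), SQLE (0.17), FDFT1 (0.16) and LSS (0.15) were higher with adjusted p between 0.00936 and 0.0492. Only INSIG1 held in each alternative and leave-one-out setting of this comparison: with control replicate 1 alone 1 gene was called, and 1 gene also on leaving out control replicate 2 or control replicate 3. Upper-quartile scaling called 2 genes and turned the share of rises among all called genes to 37.5%, against 66.6%. Against the 12 libraries at 0.001 to 1 µM, 4 genes were higher at 10 µM (0.725% of all genes) and none lower (1.9%; at an unadjusted p under 0.05, 1 by edgeR and 2 by DESeq2). These were IDI1 (log2 change 0.18, SE 0.038, adjusted p = 0.00314), INSIG1 (log2 change 0.16, SE 0.0347, adjusted p = 0.00582), ACAT2 (0.14, 0.029) and SOAT1 (0.12, 0.0284). None of the 4 kept its call in every setting. All 4 were lost without 10 µM replicate 1 (adjusted p = 0.0864 for IDI1, 0.0699 for INSIG1, 0.208 for ACAT2 and 0.169 for SOAT1), and ACAT2 (0.102) and SOAT1 (0.15) without 10 µM replicate 2.

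At the 4 lower doses nearly all called differences from control were rises. The median log2 change of the 29 genes was 0.06, 0.02, 0.11 and 0.09 from 0.001 to 1 µM. With control replicate 1 alone it was 0.01, 0.02, 0.05 and 0.06. That fit holds 1 control library, so a difference of the same size is harder to call. When any single library was left out, 0, 0, 4 and 1 of the rises kept their call. At 0.001 µM 2 genes were higher (1.34% of all genes) and 1 lower (0.192%), at 0.01 µM 4 were higher (4.77%), at 0.1 µM 7 (5.02%) and at 1 µM 4 (1.57%), and at the last 3 doses none was lower (1.09%, 1.43% and 0.431% of all genes; at an unadjusted p under 0.05, 3, 0 and 0 by edgeR and also 3, 0 and 0 by DESeq2). With control replicate 1 alone edgeR called none of the 29 at any of these 4 doses, and an unadjusted p under 0.05 was reached by 3, 5, 6 and 6 genes in the higher direction and by 1, 2, 0 and 0 in the lower, from 0.001 to 1 µM (DESeq2 was not run on that control). INSIG1 averaged 72.9 ± 0.925 CPM in control, 82.5 ± 2.21 at 0.001 µM, 81.3 ± 4.24 at 0.01 µM, 84.0 ± 0.969 at 0.1 µM, 82.9 ± 5.51 at 1 µM, 92.3 ± 1.08 at 10 µM and 61.9 ± 1.02 at 100 µM (SD, n = 3 each). The means of its 4 lower treated groups lay close together and above control (log2 changes 0.18, 0.16, 0.20 and 0.18 from 0.001 to 1 µM). DHCR7 was also called above control at each of these doses (log2 changes 0.26, 0.23, 0.35 and 0.25). Every comparison with control uses the same 3 control libraries, so calls repeated over doses are not independent. NPC1 was called at 0.01, 0.1 and 1 µM (0.19, 0.20 and 0.24) and SREBF2 at 0.01 and 0.1 µM (0.16 and 0.15). FDPS, SQLE and LSS were called at 0.1 µM alone and FDFT1 at 1 µM alone among these doses. The single fall was MYLIP at 0.001 µM (log2 change -0.32, SE 0.0827, adjusted p = 0.0332). That call was lost without control replicate 1 (adjusted p = 0.0663), control replicate 3 (0.209) or 0.001 µM replicate 3 (0.247). It was also lost with only both groups in the fit (0.058).

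In the test of all 7 groups at once, 19 of the 29 genes passed (30% of all genes). Over the 7 group means 18 genes were lowest at 100 µM (27.8% of all genes) and 3 were highest there (28%), namely PMVK, CYP51A1 and SOAT1. The mean was highest at 10 µM in 9 genes (9.84% of all genes; ACAT2, HMGCS1, IDI1, FDFT1, LSS, MSMO1, EBP, INSIG1 and TMEM97). Among those that passed, the ratio of the highest to the lowest group mean was greatest for INSIG1 (1.49), HSD17B7 (1.34), MVD (1.32), IDI1 (1.31) and MVK (1.31). IDI1 averaged 67.9 ± 1.56 CPM in control, 68.3 ± 5.06 at 0.001 µM, 62.9 ± 1.5 at 0.01 µM, 64.6 ± 3.12 at 0.1 µM, 74.4 ± 3.32 at 1 µM, 76.7 ± 3.32 at 10 µM and 58.4 ± 0.206 at 100 µM (SD, n = 3 each). SREBF2 had another shape, with means of 251 ± 3.07, 271 ± 15.9, 280.4 ± 8.07, 278 ± 5.72, 265 ± 8.45, 262 ± 3.99 and 224 ± 0.921 CPM from control to 100 µM. By its means it was highest at 0.01 µM and lowest at 100 µM, with no peak at 10 µM.

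**Figure D3:**
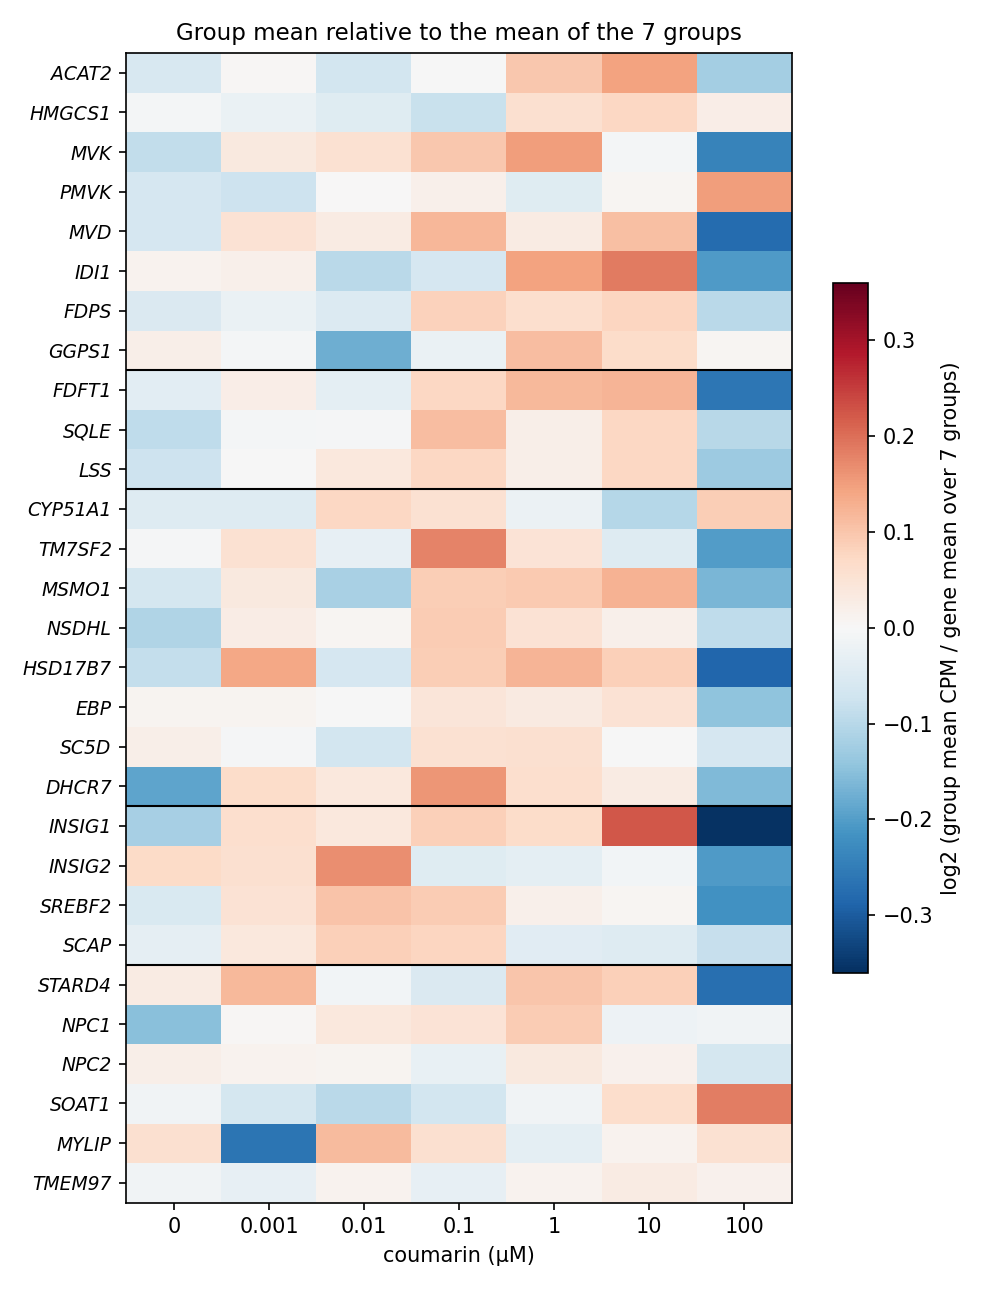
Group mean of each of the 29 genes relative to its mean over the 7 groups (colour, log2 ratio of CPM), by dose on the horizontal axis and in pathway order down the page. The column at 100 µM is blue for most synthesis and sensing genes, with INSIG1 at -0.35, and red for PMVK, CYP51A1 and SOAT1, and INSIG1 reaches 0.22 at 10 µM.

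Compared between genes by FPKM, which divides by gene length, the members spanned 2.03 ± 0.431 (TM7SF2) to 37.7 ± 1.73 FPKM (FDFT1) in control (SD, n = 3). TMEM97 (37.2 ± 1.51), FDPS (36.8 ± 1.24) and PMVK (35.8 ± 0.746) followed FDFT1 with overlapping ranges from each to the next. SREBF2 (31.9 ± 0.441) and EBP (30.4 ± 1.54) overlapped each other, and INSIG1 (19.1 ± 0.249) and DHCR7 (18.2 ± 0.811) did so below them. At the low end SC5D, CYP51A1, MVK and TM7SF2 were at 3.08, 2.92, 2.71 and 2.03 FPKM, and only MVK and TM7SF2 among these neighbours did not overlap. The falls at 100 µM include abundant genes (FDFT1, FDPS, SREBF2) and scarce ones (MVK, HSD17B7 at 3.37 FPKM).

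Genes around the core route were read from 4 further lists in the same comparison of 100 with 10 µM. Of 14 SREBP targets of fatty acid synthesis 9 were lower and 1 higher (10% and 8.22% of all genes), with a median log2 change of -0.17 (0.00 over all genes). SCD, the stearoyl-CoA desaturase, had a mean of 775 CPM at 100 µM and 946 CPM at 10 µM (log2 change -0.29, SE 0.0372, adjusted p = 1.60e-07). LPIN1, a phosphatidate phosphatase (-0.32), ACSL3 (-0.20) and ACSS2 (-0.35), which activate long-chain fatty acids and acetate, were also lower (adjusted p = 8.30e-06, 1.76e-04 and 4.31e-04). Of 26 listed genes of sterol transport, storage, oxidation and efflux 20 passed the low-count filter. ABCA1 and ABCG1 (efflux), CYP27A1, CH25H and CYP7B1 (oxidation) and SOAT2 did not, so they were not tested. Of the 20, 6 were lower and 1 higher, beside 10% and 8.22% of all genes, with a median of -0.12. LIPA, the lysosomal acid lipase (-0.30), NCEH1, a cholesteryl ester hydrolase (-0.33), SCARB1, a receptor for HDL (-0.13), and OSBP, an oxysterol-binding protein (-0.16), were lower (adjusted p = 2.99e-06, 6.13e-05, 0.0117 and 0.0118).

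Of 14 genes of isoprenoid branches that leave the mevalonate pathway 2 were higher and 1 lower, with a median of 0.02, and these shares are near those of all genes (8.22% and 10%). RABGGTB, a geranylgeranyl transferase subunit (log2 change 0.21, SE 0.0458, adjusted p = 6.25e-04), and ICMT, a methyltransferase of prenylated proteins (0.12, adjusted p = 0.0334), were higher, and NUS1, a subunit of the enzyme that makes dolichol chains (-0.23, 8.12e-04), was lower. Of 17 genes of SREBP processing and of the quality control of sterol enzymes 2 were lower, with a median of -0.01, and this share too is near that of all genes (10%). Both encode coat proteins of vesicles that leave the endoplasmic reticulum, SEC23A (log2 change -0.22, SE 0.0407, adjusted p = 8.80e-05) and SEC24D (log2 change -0.23, SE 0.0487, adjusted p = 4.73e-04). Differences between these lists were not tested.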

How the data were processed

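Gene counts of 21 libraries of cells labelled HepG2 (0 to 100 µM coumarin, 24 h, 3 libraries per dose) were analysed. Whole-number counts per gene were deposited by the authors as a table, and a second deposited table holds FPKM, scaled by the authors by gene length and library total. The submitters' processing notes name HISAT2, DESeq2 and GRCh38 and no version. How reads were counted, with which strand setting and annotation release, is not given in the sources used here.

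Groups follow the labelled dose. The counts went through edgeR 4.0.16 in R 4.3.3 (filterByExpr, TMM scaling, robust quasi-likelihood F test) in 1 fit of all 21 libraries with 14 residual degrees of freedom, 16699 genes and 9 comparisons, besides a test of all 7 groups at once. P-values were two-sided and adjusted by Benjamini-Hochberg over all tested genes, with a threshold of 0.05. The standard error of a log2 change is its size divided by the square root of F. "Rose" and "fell" are used of what passed. Total counts of 26984563 to 43375429 per library and a biological coefficient of variation of 4.49% set the precision. FPKM were used to compare genes with each other and, as log2(FPKM + 1), with limma 3.58.1. DESeq2 1.42.0 was an alternative. The edgeR steps were also run on simulated counts with known changes. Those counts were drawn with the spread fitted to these same libraries, so that run cannot show the effect of single unlike libraries.

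The genes and lists were chosen with earlier results of these data known. All 29 genes are accounted for. Values in every library were given for the 10 called genes with the smallest p between 100 and 10 µM and for INSIG1, INSIG2, SREBF2 and SCAP. A few others were added after their values were seen. Of each further list up to 4 called genes were named. A further list of other synthesis steps is not reported here. Promoter windows came from RefSeq (GRCh38.p14) and matched 26 of 29 genes by symbol.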

Additional observations from a re-analysis of the deposited data

How the results depend on the processing

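Between 100 and 10 µM, the 15 falls among the 29 genes numbered 13 to 15 in each alternative and with each single library left out, and 13 of them kept their call throughout. The comparisons with control were less firm: with control replicate 1 alone (the lone control is assumed to vary like the other groups) the rises at 10 µM and below were lost except that of INSIG1 at 10 µM. The values below are those that moved from the reported ones by over 1.5 times for counts, or by over 1 SD for medians. The stricter threshold lowers counts by construction, and the cause of the other shifts was not tested.

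At an adjusted p under 0.01, the genes called numbered 2966 for 100 against 0 µM, 138 for 10 against 0 µM, 100 for 1 against 0 µM, 437 for 0.1 against 0 µM, 467 for 0.01 against 0 µM, 90 for 0.001 against 0 µM, 1825 for 100 against 10 µM, 166 for 10 against 0.001 to 1 µM and 3321 for the 7 groups at once. Members higher numbered 2 for 10 against 0 µM, 1 for 1 against 0 µM, 4 for 0.1 against 0 µM, 2 for 0.01 against 0 µM, 0 for 0.001 against 0 µM, 0 for 100 against 10 µM and 2 for 10 against 0.001 to 1 µM. Members lower numbered 0 for 0.001 against 0 µM. With control replicate 1 alone, the genes called numbered 2222 for 100 against 0 µM, 91 for 10 against 0 µM, 31 for 1 against 0 µM, 233 for 0.1 against 0 µM, 302 for 0.01 against 0 µM and 119 for 0.001 against 0 µM. Members higher numbered 1 for 100 against 0 µM, 1 for 10 against 0 µM, 0 for 1 against 0 µM, 0 for 0.1 against 0 µM, 0 for 0.01 against 0 µM and 0 for 0.001 against 0 µM. Members lower numbered 0 for 0.001 against 0 µM. The median log2 change of the members was -0.121 for 100 against 0 µM. With only the groups compared in the fit, the genes called numbered 213 for 10 against 0 µM and 95 for 0.001 against 0 µM. Members higher numbered 2 for 10 against 0 µM, 2 for 1 against 0 µM, 0 for 0.001 against 0 µM and 0 for 100 against 10 µM. Members lower numbered 0 for 0.001 against 0 µM. With upper-quartile scaling, the genes called numbered 213 for 1 against 0 µM. Members higher numbered 2 for 10 against 0 µM, 2 for 1 against 0 µM, 4 for 0.1 against 0 µM and 1 for 0.001 against 0 µM. The median log2 change of the members was -0.0956 for 100 against 0 µM and 0.0495 for 10 against 0 µM. Without a filter, the genes called numbered 394 for 0.001 against 0 µM. Members higher numbered 0 for 100 against 10 µM. The median log2 change of the members was -0.0492 for 100 against 0 µM and -0.125 for 100 against 0.001 to 1 µM. By DESeq2, the genes called numbered 539 for 1 against 0 µM and 440 for 0.001 against 0 µM. With a filter of 1 CPM in 3 libraries, the median log2 change of the members was -0.0703 for 100 against 0 µM. By limma on log2(FPKM + 1), the median log2 change of the members was -0.16 for 100 against 10 µM.

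When single libraries were left out, the genes called ran over 47 to 326 (0.001 against 0 µM), 439 to 1073 (0.01 against 0 µM), 417 to 1278 (0.1 against 0 µM), 38 to 663 (1 against 0 µM), 92 to 649 (10 against 0 µM) and 127 to 549 (10 against 0.001 to 1 µM). The members higher ran over 0 to 3 (0.001 against 0 µM), 0 to 4 (0.01 against 0 µM), 4 to 7 (0.1 against 0 µM), 1 to 5 (1 against 0 µM), 1 to 6 (10 against 0 µM), 0 to 4 (10 against 0.001 to 1 µM) and 0 to 2 (100 against 10 µM). The members lower ran over 0 to 1 (0.001 against 0 µM) and 5 to 8 (100 against 0 µM). The median log2 change of the members ran over 0.0637 to 0.103 (10 against 0 µM), -0.0794 to -0.0399 (100 against 0 µM), -0.162 to -0.12 (100 against 0.001 to 1 µM) and -0.2 to -0.143 (100 against 10 µM).

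The replicate numbers did not pair the libraries: over 63 pairs with the same number the correlation of deviations from group means ran from -0.546 to 0.568, 9 were over 0.1, and 6 of 21 libraries correlated best with their own number. With the replicate block 2951 genes were called for 100 against 10 µM (3051 without it), 376 for 10 against 0 µM (437) and 4446 for 100 against 0 µM (4558), and 15 members fell and 1 rose for 100 against 10 µM. Changes near 0 turned sign for 4 members that did not pass in 100 against 10 µM: NPC1 (-1.67e-06 by DESeq2, and -0.0186 to 0.0289 with single libraries left out), SC5D (-0.0972 to 0.000969 with single libraries left out), MYLIP (-0.00306 to 0.101) and TMEM97 (-0.0309 to 0.0077). Leaving the bases after the start out of the promoter windows took CACGTG to 3 genes, against 4, and changed no other motif's count among the members.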
